A study of Mus musculus with 6 samples.

Results

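Mitochondria divide when Drp1, a cytosolic GTPase of the dynamin family encoded by Dnm1l, is gathered on their outer membrane, assembles into rings and constricts the organelle. The adaptors Mff, Mief1, Mief2 and Fis1 sit in that membrane and bind Drp1, the formin Inf2 builds actin filaments where the endoplasmic reticulum touches the division site, and dynamin 2 (Dnm2) has been placed at a late step of scission. In skeletal muscle, division and fusion keep the rows of mitochondria between the myofibrils renewed, and division separates damaged pieces for removal. The 10 genes of this machinery described here were chosen by name: Dnm1l, Fis1, Mff, Mief1, Mief2, Dnm2, Mtfr1, Mtfp1, Inf2 and Pgam5. All 10 were among the 11768 genes of the table, each with a value in all 6 columns.

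Transcripts were measured by total RNA sequencing of quadriceps from mice on normal chow, with 3 columns labelled mDrp1HET (also named Drp1-KD), a heterozygous knockout of Drp1 in muscle, and 3 labelled Control f/f, which carry the floxed gene. The promoter that drives the deletion in muscle, the part of Dnm1l that is deleted, and the age and sex of the mice are not stated in the labels. Whether the columns of a group come from different animals is not in the labels, and the p-values speak only of the spread among these libraries, which may be technical. The data are bulk values of whole muscle, in which fewer cells of a type and less RNA per cell cannot be told apart. Of 10 myofibre markers, such as Acta1, Ckm and Ttn, all 10 were measured, and together they held between 230900 and 302000 CPM (reads per library, brought to one shared total) in every library.

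One library stands under both labels. In 11334 genes the read number of Control replicate 1 was 2 times that of mDrp1HET replicate 3, while the other 14 pairs of columns reached at most 81 such genes. The chi-square statistic per gene between these columns was 0.00367, against at least 52.8 in every other pair, a difference below sampling noise, and they were treated as 1 library. It is called the shared library below and is assigned to neither group. This leaves 2 mDrp1HET libraries (replicates 1 and 2) and 2 Control libraries (replicates 2 and 3). The comparison of these 2 against 2 is given first, and that of all columns as labelled beside it. As labelled, the shared library is in both groups, so the fold changes repeat those of the 4 libraries at a smaller size. They are not a separate test. With 2 against 2, an exact permutation test cannot give a p below 0.333, and with 3 against 3 columns none below 0.1. Reads recovered from the values came to 15782298 and 10394761 in mDrp1HET replicates 1 and 2, 28664508 and 25019293 in Control replicates 2 and 3, and 32372360 in the shared library as deposited under mDrp1HET. Behind each value of a fission gene stood between 62 reads, for Inf2 in mDrp1HET replicate 2, and 6676 reads, for Dnm1l in Control replicate 1. The latter is a doubled number, since the shared library held 3338 Dnm1l reads as deposited under mDrp1HET. Control replicate 2 held 3546.

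Upstream sequence is shown for the targeted gene and for Fis1 and Mff, the adaptors with the largest differences in the comparisons below. Each run is the 250 bases before a transcript start in RefSeq (GRCm38.p6), the outermost one in the promoter table, written 5′ to 3′ on the gene's own strand. For Dnm1l this start lies 7 bases inside the gene's edge and was not matched to a GENCODE M21 transcript, while those of Fis1 and Mff lie at the edge and were matched. The windows lie at chr16:16359032-16359281 on the minus strand for Dnm1l, at chr5:136953025-136953274 on the plus strand for Fis1, and at chr1:82724640-82724889 on the plus strand for Mff. Capitals mark GGGCGG, the core of a GC box, and CCGGAAG, the core bound by ETS factors, both searched on either strand, and they do not overlap in these windows.
Dnm1l: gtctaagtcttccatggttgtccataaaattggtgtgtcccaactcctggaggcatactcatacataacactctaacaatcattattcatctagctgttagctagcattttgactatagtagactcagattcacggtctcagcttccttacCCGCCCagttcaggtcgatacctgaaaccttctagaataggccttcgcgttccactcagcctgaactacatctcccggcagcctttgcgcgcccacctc
Fis1: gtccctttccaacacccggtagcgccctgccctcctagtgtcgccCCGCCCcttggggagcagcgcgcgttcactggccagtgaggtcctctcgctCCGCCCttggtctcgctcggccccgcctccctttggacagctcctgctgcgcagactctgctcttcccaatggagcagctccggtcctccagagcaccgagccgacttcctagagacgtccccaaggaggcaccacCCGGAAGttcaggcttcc
Mff: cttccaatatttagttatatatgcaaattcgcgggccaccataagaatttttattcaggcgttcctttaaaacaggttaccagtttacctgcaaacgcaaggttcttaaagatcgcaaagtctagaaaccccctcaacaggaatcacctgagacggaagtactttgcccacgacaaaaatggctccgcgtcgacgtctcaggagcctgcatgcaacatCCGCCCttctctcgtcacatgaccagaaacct
GGGCGG or its complement occurred 1 time in the Dnm1l window, 2 times in that of Fis1 and 1 time in that of Mff. It was present in 32.7% of the 32851 windows of this length in the RefSeq table, and in 7 of the 8 windows found for fission genes. Those 32851 windows are not limited to measured genes, and a share among measured genes is not given here. CCGGAAG occurred 1 time in the Fis1 window and in neither of the other windows printed. It was present in 2 of the 8 windows found for fission genes, those of Fis1 and Mief1, and in 6.91% of all windows. The Fis1 window was 66.8% G and C, against 47.6% for Dnm1l, 46.0% for Mff and a median of 52.4% over all windows. These matches describe the letters of the windows, and no binding was measured.

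Dnm1l, the gene that carries the deletion, did not have a lower deposited level in both libraries labelled mDrp1HET, and the sign of its difference depended on the scaling. It stood at 7.30 and 6.73 log2 CPM in mDrp1HET replicates 1 and 2, at 6.69 in the shared library, and at 6.95 and 6.87 log2 CPM in Control replicates 2 and 3. One mDrp1HET library was thus the highest of the 5 and the other lay below both Control libraries, so the groups overlapped. The log2 fold change, mDrp1HET over Control, was 0.11 (95% interval -0.40 to 0.62, SE 0.23, adjusted p = 0.843 by limma), with an exact permutation p of 1. As labelled it was 0.07 (95% interval -0.36 to 0.50, SE 0.19, adjusted p = 0.914 by limma). A halved level would be -1 on this scale, below limma's lower bounds of -0.40 and -0.36. Those bounds draw on the spread of other genes, and the labelled fit holds the shared library in both groups. The SD of Dnm1l itself, over 2 libraries each, was 0.41 in mDrp1HET and 0.060 in Control. With so few libraries the bounds do not settle whether the level was halved. The sign was negative under scalings that move all genes together, at -0.058 with median centring of the 4 libraries, it was -0.31 with the GC trend removed, and without mDrp1HET replicate 1 it was -0.18. The gene spans positions 16312228 to 16359038 of chromosome 16 (GRCm38.p6, Entrez 74006). Reads summed over a gene do not tell an intact transcript from one of a recombined allele. The antisense gene Gm49521 shares 243 exon bases with Dnm1l in GENCODE M21, and whether reads were counted by strand was not given in the sources used here.

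**Figure D1:**
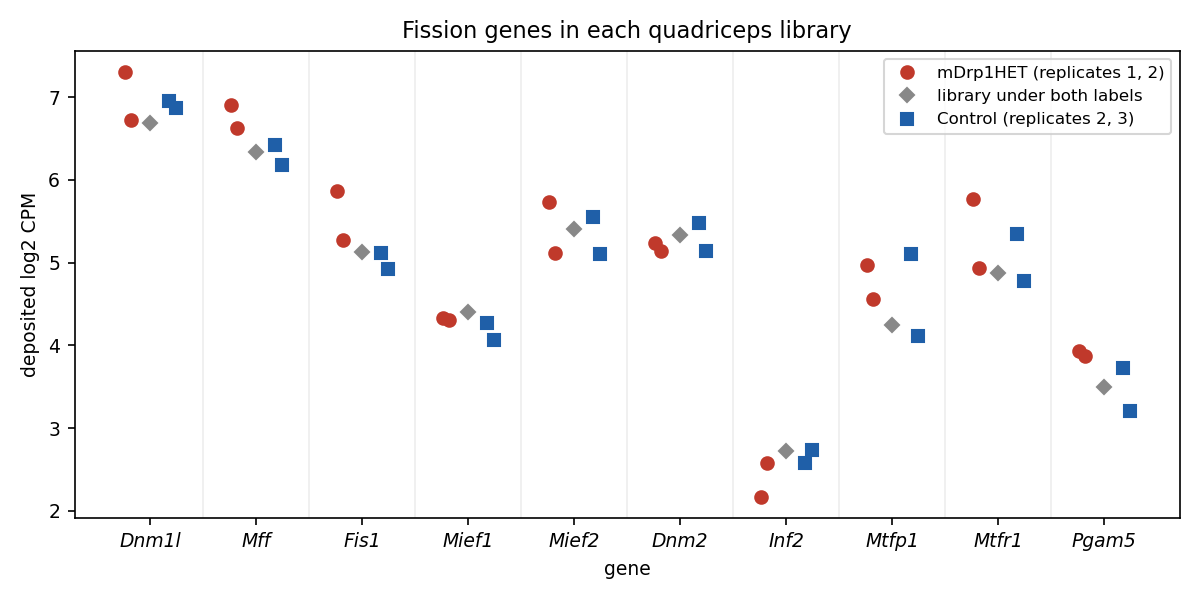
Deposited log2 CPM (vertical axis) of the 10 fission genes in each library, with mDrp1HET replicates 1 and 2 as red circles, the shared library as a grey diamond and Control replicates 2 and 3 as blue squares. For Dnm1l the red circles, 7.30 and 6.73, lie on either side of the blue squares, 6.95 and 6.87, while for Mff and Fis1 both red circles lie above both squares.

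Among the adaptors, Mff, Fis1 and Mief1 had higher values in both mDrp1HET libraries than in either Control library, as did 38.6% of all genes, and none passed the test over all genes. Mff, the main outer membrane receptor for Drp1 in mammalian cells, stood at 6.90 and 6.62 log2 CPM in mDrp1HET replicates 1 and 2, against 6.42 and 6.18 in Control replicates 2 and 3. The shared library, at 6.33, lay between the Control libraries. The log2 fold change was 0.46 (95% interval -0.0094 to 0.94, SE 0.22, adjusted p = 0.311 by limma), with the smallest exact permutation p that is possible, 0.333. With the dependence on transcript GC content taken out of each library, it was -0.05. The longest Mff transcript is 37.3% G and C, the lowest share among the 10 genes. C430014B12Rik, on the opposite strand, shares 195 exon bases with Mff.

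Fis1, a tail-anchored adaptor that is needed for division in yeast and recruits further regulators in mammals, had 5.87 and 5.28 log2 CPM in mDrp1HET replicates 1 and 2. Its Control values were 5.11 and 4.92 log2 CPM, and the shared library, at 5.13, lay just above both. The log2 fold change of 0.56 (SE 0.25, 95% interval 0.0029 to 1.11) was the highest of the 10 genes and had a limma unadjusted p of 0.049 and an adjusted p of 0.2996. Without mDrp1HET replicate 1 it was 0.26, and without mDrp1HET replicate 2 it was 0.85 (limma adjusted p = 0.0737), with the remaining library of the group assumed to vary like the others. As labelled, the log2 fold changes of Fis1 and Mff were 0.37 and 0.31, both with a limma adjusted p of 0.753. Counting the shared library as Control alone gave 0.52 and 0.45, and counting it as mDrp1HET alone gave 0.41 and 0.32, none of which passed.

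The paralogous adaptors Mief1 and Mief2 bind Drp1 on the outer membrane and can hold it there in an inactive state. Mief1 varied little, at 4.33 and 4.31 log2 CPM in mDrp1HET replicates 1 and 2, against 4.28 and 4.07 in Control replicates 2 and 3, and was highest in the shared library at 4.40. Its log2 fold change was 0.15 (adjusted p = 0.790 by limma, SE 0.24). AC140267.1, a gene on the same strand, shares 213 exon bases with Mief1, and counting by strand would not separate their reads there. Mief2 had 5.73 and 5.11 log2 CPM in mDrp1HET replicates 1 and 2, against 5.56 and 5.11 in Control replicates 2 and 3. The spread within each Mief2 group was thus larger than the distance between the groups, whose log2 fold change was 0.09 (adjusted p = 0.890 by limma, SE 0.27). Both signs turned with median centring, to -0.019 for Mief1 and -0.076 for Mief2.

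Genes of the actin and scission steps had the lowest fold changes of the 10. Inf2 stood at 2.17 and 2.58 log2 CPM in mDrp1HET replicates 1 and 2, against 2.58 and 2.73 in Control replicates 2 and 3, where the inner values, 2.5785 and 2.5787, almost coincide. Its log2 fold change was -0.28 (95% interval -0.98 to 0.42, SE 0.32, adjusted p = 0.686 by limma). Dnm2, whose product also cuts endocytic vesicles and acts at muscle membranes, had 5.24 and 5.14 log2 CPM in mDrp1HET replicates 1 and 2, against 5.48 and 5.14 in Control replicates 2 and 3. The Dnm2 groups overlapped, and the log2 fold change was -0.12 (adjusted p = 0.823 by limma, SE 0.23). Tmed1, a measured gene on the opposite strand, shares 207 exon bases with Dnm2.

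The remaining genes act on division from inside the mitochondrion or by modifying Drp1. Mtfp1, an inner membrane protein whose loss elongates mitochondria in cultured cells, had 4.97 and 4.56 log2 CPM in mDrp1HET replicates 1 and 2, against 5.10 and 4.11 in Control replicates 2 and 3. Its Control libraries were the farthest apart of any fission gene's, and its log2 fold change was 0.16 (adjusted p = 0.831 by limma, SE 0.32), or -0.0087 with median centring. Mtfr1, a mitochondrial fission regulator, had 5.77 and 4.94 log2 CPM in mDrp1HET replicates 1 and 2, against 5.35 and 4.78 in Control replicates 2 and 3. With overlapping groups, Mtfr1 had a log2 fold change of 0.29 (adjusted p = 0.655 by limma, SE 0.30), or -0.023 with the GC trend removed. Pgam5, a mitochondrial phosphatase that can remove phosphate from Drp1, stood at 3.93 and 3.87 log2 CPM in mDrp1HET replicates 1 and 2, against 3.72 and 3.20 in Control replicates 2 and 3. The Pgam5 groups did not overlap, but the shared library, at 3.50, lay between the Control values, and the log2 fold change of 0.44 (SE 0.28) had a limma adjusted p of 0.442. The antisense gene Gm26718 shares 1378 exon bases with Pgam5.

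**Figure D2:**
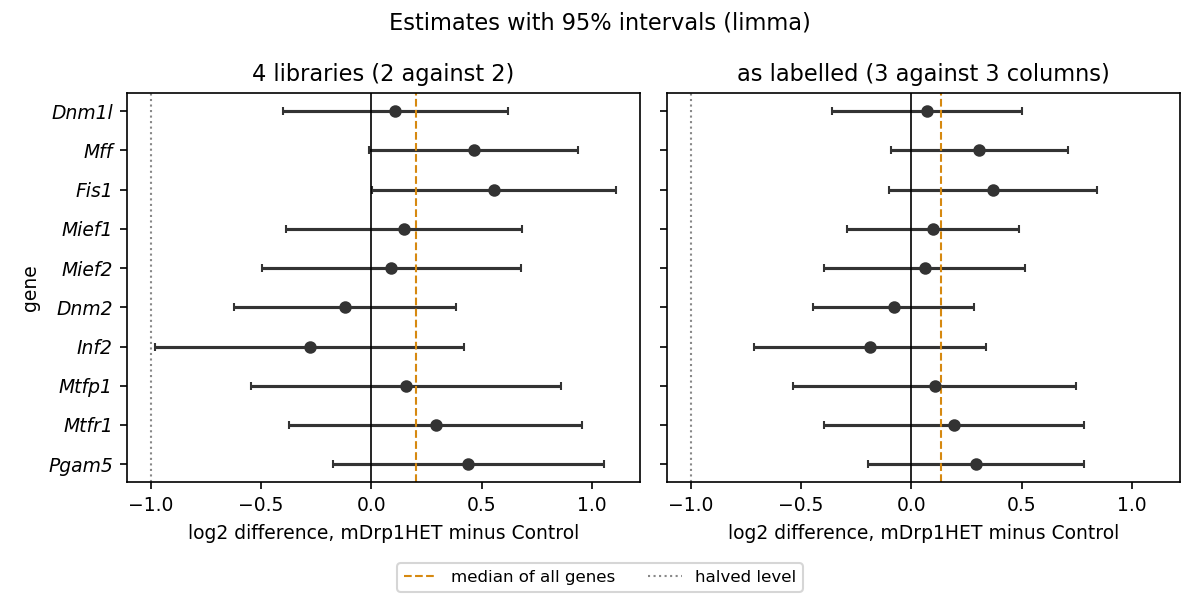
Log2 difference, mDrp1HET minus Control (horizontal axis), of each fission gene with its 95% interval from limma, for the 4 separate libraries (left) and the columns as labelled (right). Intervals of the 4 libraries include 0 for all genes except Fis1 (0.0029 to 1.11), the interval of Dnm1l ends at -0.40, short of the halved level at -1, and the dashed line at 0.20 or 0.13 is the median of all genes.

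As a group, the fission genes gave no call, like nearly all of the table. In the comparison of 2 against 2 libraries, 0 of 10 passed limma's adjusted threshold of 0.05, where 0.187% of all genes did. At an unadjusted limma p under 0.05 there was 1 of 10, Fis1, against 16.6% of all genes, and limma-voom on recovered reads called 0 of 10 after adjustment. As labelled, 0 of 10 passed limma's adjusted threshold, where 0% of all genes did, and 0 of 10 had an unadjusted p under 0.05, against 3.90% of all genes. The p-values of the authors' deposited table for the 10 genes lay between 0.159, for Mff, and 0.799, for Mief2. Their test is not stated, and the columns beside them hold the shared library under both labels, so they are not separate support.

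Directions were near those of the whole table. Of the 10 genes, 8 had a log2 fold change above 0, as did 69.6% of all genes, and with median centring 4 of 10 did, against 53.8% of all genes. Their median log2 fold change was 0.15, beside 0.20 for all genes, and 4 of the 10 lay above that median of all genes. The groups did not overlap for 5 of the 10 genes, against 49.9% of all genes. Both mDrp1HET libraries lay above both Control libraries for 4 genes (Mff, Fis1, Pgam5 and Mief1), against 38.6% of all genes. Both lay below for 1 gene (Inf2), against 11.3% of all genes. Fis1 was higher in its fold change than 82.2% of all genes, Mff than 75.4%, Dnm1l than 40.5% and Inf2 than 12.4%.

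The same libraries were often the extreme ones for these genes. Replicate 1 of mDrp1HET was the highest of the 5 libraries for 6 of the 10, and Control replicate 3 was the lowest for 7. These libraries also had the highest and the lowest median over all genes, at 4.06 and 3.67 log2 CPM, and that scale difference enters every value above. Replicate 1 of mDrp1HET further differed in Rn45s, the ribosomal RNA precursor, which took 1.59% of its reads and between 5.18% and 8.30% in the other columns. Rn7sk, another abundant noncoding RNA, took 1.39% and 1.90% of reads in mDrp1HET replicates 1 and 2, against 0.584% and 0.419% in Control replicates 2 and 3, and 0.198% in the shared library. The part of these RNAs in the levels of the fission genes was not tested. Over the 5 libraries the SD in log2 CPM was 0.13 for Mief1, below that of all but 5.83% of genes, and 0.14 for Dnm2. For Mtfp1 and Mtfr1 it was 0.43 and 0.41, above that of 77.0% and 74.2% of genes, and for Dnm1l 0.25, against a median of 0.30 over all genes.

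Levels were compared between genes per length, as RPKM (recovered reads per kilobase of exon, scaled like CPM), over the 5 separate libraries. Mff averaged 42.6 ± 8.59 and Dnm1l 26.8 ± 4.85 RPKM (SD, n = 5), and Fis1, between them, averaged 35.8 with a range of 27.5 to 53.0 RPKM. They were followed by Mtfp1 (17.8 ± 5.31), Mief2 (16.8 ± 3.18), Mtfr1 (11.5 ± 3.57) and Dnm2 (9.61 ± 0.964) on the same scale. The lowest were Pgam5 (6.06 ± 1.19), Mief1 (3.40 ± 0.285) and Inf2 (1.48 ± 0.217). In this order the ranges of 6 of the 9 neighbouring pairs overlapped, and only the steps from Dnm2 to Pgam5, to Mief1 and to Inf2 had separate ranges. Of the paralogs, Mief2 was above Mief1 in 5 of 5 libraries, by 4.93-fold in the mean.

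The order of the 3 highest genes depended on the length used. The union of exons was taken over the GENCODE basic set, a subset of its transcripts. With it, Mff (2148 bases) was above Fis1 (1102 bases) and Fis1 above Dnm1l (4535 bases) in 5 of 5 libraries. With the longest transcript of the full GENCODE set, chosen after the values were seen, Mff (3918 bases) was lowest of these 3 in 5 of 5 libraries. Its mean was 23.3 RPKM, after Fis1 at 41.6 and Dnm1l at 30.6 RPKM. The basic set thus leaves out part of the longest Mff transcript, and which length holds in muscle was not tested. Fis1 was above Dnm1l, and Mief2 above Mief1, with both lengths.

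**Figure D3:**
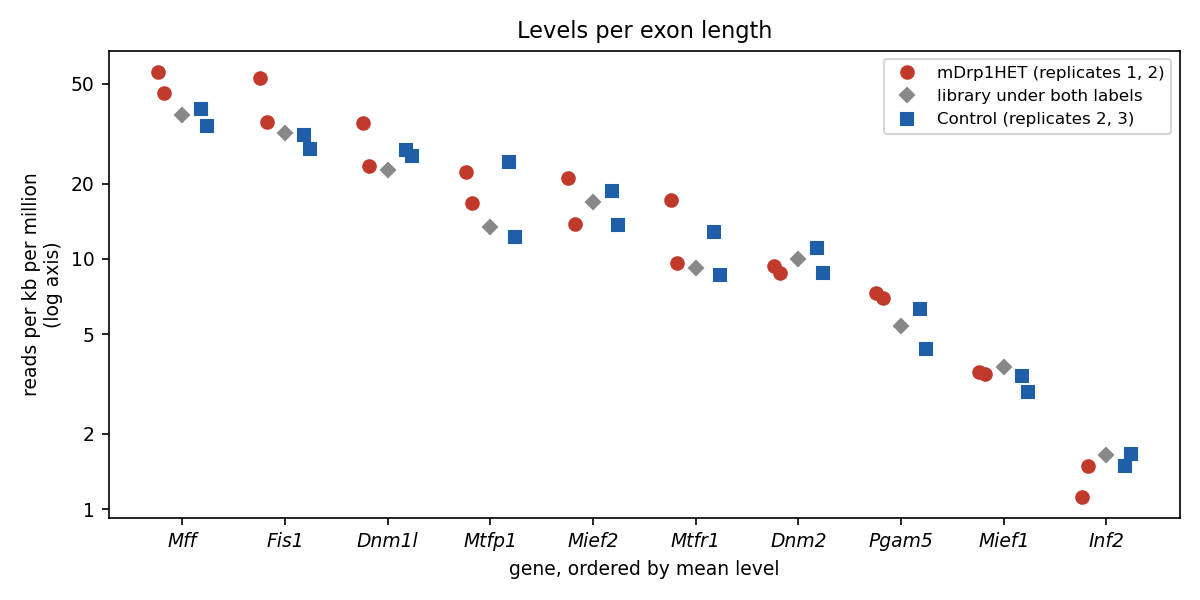
RPKM on a log axis for the fission genes, ordered by their mean over 5 libraries, with mDrp1HET libraries as red circles, the shared library as a grey diamond and Control libraries as blue squares. Levels run down to 1.48 for Inf2 at the right, and between neighbouring genes the ranges are separate only among the last 4.

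The balance between Dnm1l and its partners was read as the difference of log2 CPM within a library, which does not change with the scale of that library. Fis1 minus Dnm1l was -1.44 and -1.45 in mDrp1HET replicates 1 and 2, against -1.84 and -1.95 in Control replicates 2 and 3. It lay at -1.56 in the shared library, between the groups. For Mff minus Dnm1l the values were -0.40 and -0.11 in mDrp1HET replicates 1 and 2, against -0.53 and -0.68 in Control replicates 2 and 3. Here the shared library, at -0.36, lay between the mDrp1HET values, so the Mff groups would overlap if it were a Control library. Relative to Dnm1l, Fis1 was thus higher by 0.45 and Mff by 0.36 in the mean of the mDrp1HET libraries. Each had an exact permutation p of 0.333, the smallest possible. With the GC trend removed these differences were 0.81 for Fis1 and 0.25 for Mff. Of the 9 differences from Dnm1l, these 2 did not overlap between groups, both higher in mDrp1HET, and 7 overlapped. Among all genes, 27.3% had a difference from Dnm1l that did not overlap and was higher in mDrp1HET, and 14.4% one that was lower. The 9 pairs were not independent, since all share Dnm1l.

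Mfn2, the outer membrane GTPase that fuses mitochondria, was set beside Dnm1l after the values were seen. Of all genes, 94.8% had a difference from Mfn2 that did not overlap between groups and was higher in mDrp1HET, so such a separation is not particular to Dnm1l. Dnm1l minus Mfn2 was 0.04 and -0.50 in mDrp1HET replicates 1 and 2, against -1.48 and -1.26 in Control replicates 2 and 3, and -1.34 in the shared library. The change in this balance, 1.14 on the log2 scale, stands beside the level of Mfn2 itself, which had 7.27 and 7.23 log2 CPM in mDrp1HET replicates 1 and 2, against 8.43 and 8.13 in Control replicates 2 and 3. The shared library, at 8.03, lay nearer the Control libraries. Mfn2 had a log2 fold change of -1.03 (SE 0.21), with an adjusted p of 0.0747 by limma and 0.0562 by limma-voom. DESeq2 on recovered reads, which was set aside, did call Mfn2, so whether Mfn2 passes depends on the tool.

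**Figure D4:**
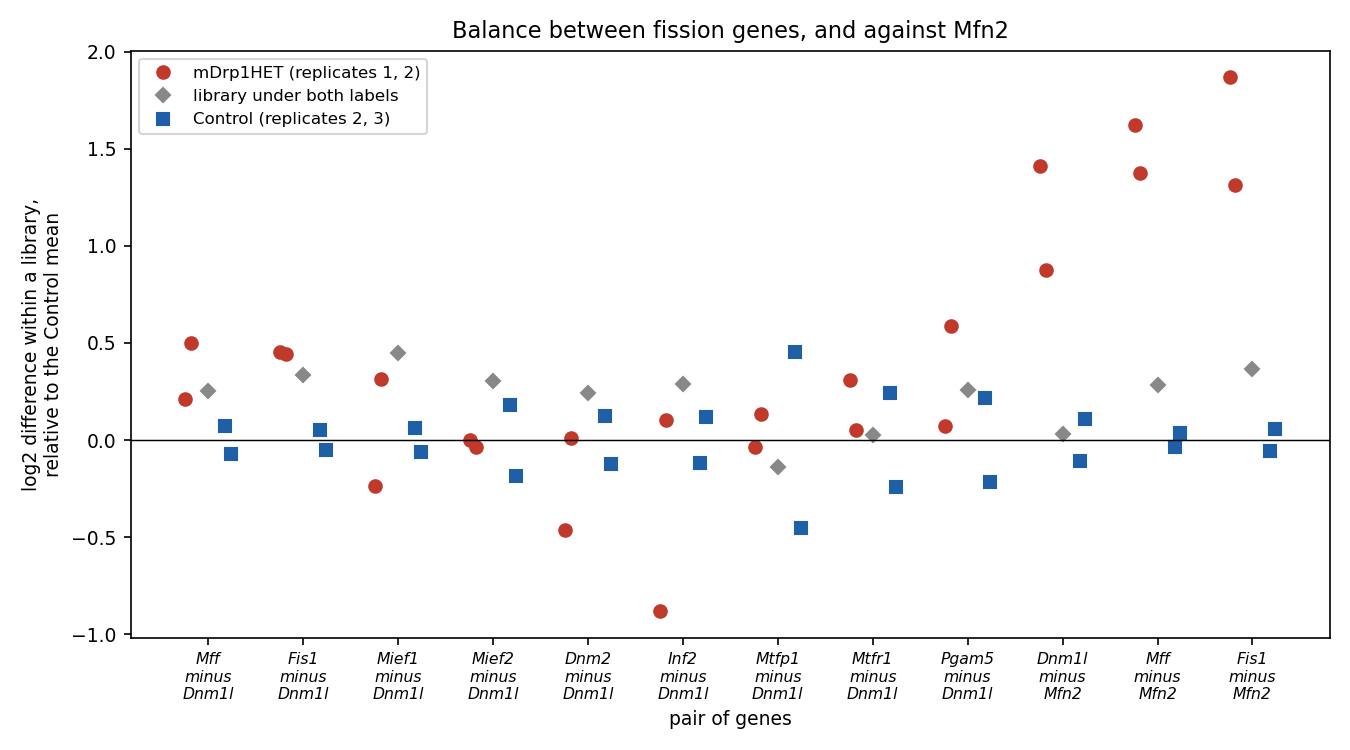
Difference in log2 CPM between 2 genes of the same library, set to 0 at the Control mean, for each fission gene against Dnm1l and for Dnm1l, Mff and Fis1 against Mfn2, with mDrp1HET libraries as red circles, the shared library as a grey diamond and Control libraries as blue squares. Both red circles lie above both blue squares for Mff and Fis1 against Dnm1l, by 0.36 and 0.45 in the mean, and for all 3 differences from Mfn2, as for 94.8% of all genes.

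Around the core machinery, 0 of 72 measured genes in 6 further lists passed limma's adjusted threshold in either comparison, and limma-voom also called 0. DESeq2 on recovered reads, set aside and without values here, did call Mfn2, Fundc1, Actg1 and Myh9 in the 4 libraries. Unadjusted, limma had a p under 0.05 for 10 of the 72 genes, 6 higher and 4 lower in mDrp1HET, in the 4 libraries (13.9%, against 16.6% of all genes), and for 4 as labelled (5.56%, against 3.90% of all genes). The counts by list below are to be read against the same 16.6%, and the genes named are those with the smallest p in their list.

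Enzymes that modify Drp1 include kinases, phosphatases and ligases that switch its activity or removal. Of 26 measured of 28 listed, 0 had an unadjusted limma p under 0.05, and the median log2 fold change was 0.09, beside 0.20 for all genes. Prkaa2, a catalytic subunit of AMP-activated kinase, which phosphorylates Mff, had 9.10 and 8.85 log2 CPM in mDrp1HET replicates 1 and 2, against 8.52 and 8.58 in Control replicates 2 and 3. Its log2 fold change was 0.43 (adjusted p = 0.324 by limma, SE 0.20). Rock1, a kinase reported to act on Drp1, had one of 0.49 (SE 0.25) and the kinase Prkcd one of -0.47 (SE 0.25).

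Actin and myosin genes of the constriction site numbered 15 of 15 measured, with 1 higher and 3 lower at an unadjusted limma p under 0.05 (16.6% of all genes, in either direction) and a median log2 fold change of 0.03. Actg1, a cytoplasmic actin, had 4.44 and 2.48 log2 CPM in mDrp1HET replicates 1 and 2, against 5.26 and 5.11 in Control replicates 2 and 3. The mDrp1HET libraries lay far apart, and the log2 fold change was -1.72 (adjusted p = 0.147 by limma, SE 0.48). Myh9, a nonmuscle myosin that can constrict mitochondria ahead of Drp1, had a log2 fold change of -0.64 (adjusted p = 0.204 by limma, SE 0.21). Wasl, an activator of branched actin, had one of 0.72 (adjusted p = 0.179 by limma, SE 0.22).

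Of 14 measured of 15 listed other genes reported in mitochondrial division, 3 were higher and 0 lower at an unadjusted limma p under 0.05 (16.6% of all genes, in either direction), with a median log2 fold change of 0.09. Fundc1, a mitophagy receptor of the outer membrane that can bind Drp1, stood at 5.51 and 5.26 log2 CPM in mDrp1HET replicates 1 and 2, against 4.27 and 4.42 in Control replicates 2 and 3. The shared library, at 4.56, lay near the Control values. Fundc1 had a log2 fold change of 1.04 (adjusted p = 0.0921 by limma and 0.0687 by limma-voom, SE 0.23). Vps35, a retromer subunit, and Slc25a46, an outer membrane protein of mitochondrial shape, had log2 fold changes of 0.61 (SE 0.21) and 0.48 (SE 0.21).

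Dynamins and partners of dynamin 2 at the triad, where 7 of 8 were measured, had 1 higher and 0 lower at an unadjusted limma p under 0.05. Dnm3, a paralog of Dnm2, had 4.08 and 3.95 log2 CPM in mDrp1HET replicates 1 and 2, against 3.02 and 2.94 in Control replicates 2 and 3. Its log2 fold change was 1.03 (adjusted p = 0.126 by limma, SE 0.27). Mtm1, the phosphoinositide phosphatase myotubularin, had one of 0.50 (SE 0.25), and Bin1, which shapes the tubular membrane of the triad, one of -0.39 (SE 0.21). Beyond Mfn2, the fusion list (7 of 8 measured, 1 higher and 1 lower unadjusted) held the protease Yme1l1 at 0.64 (SE 0.20), Miga1 at 0.32 (SE 0.27), Mfn1 at -0.25 (SE 0.29) and the inner membrane GTPase Opa1 at -0.07 (SE 0.23) on the log2 fold change scale. Peroxisomes divide with the same Drp1, Mff and Fis1, and of their genes Pex19 had a log2 fold change of 0.14 and Pex11g one of 0.01, neither with an unadjusted limma p under 0.05.

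**Figure D5:**
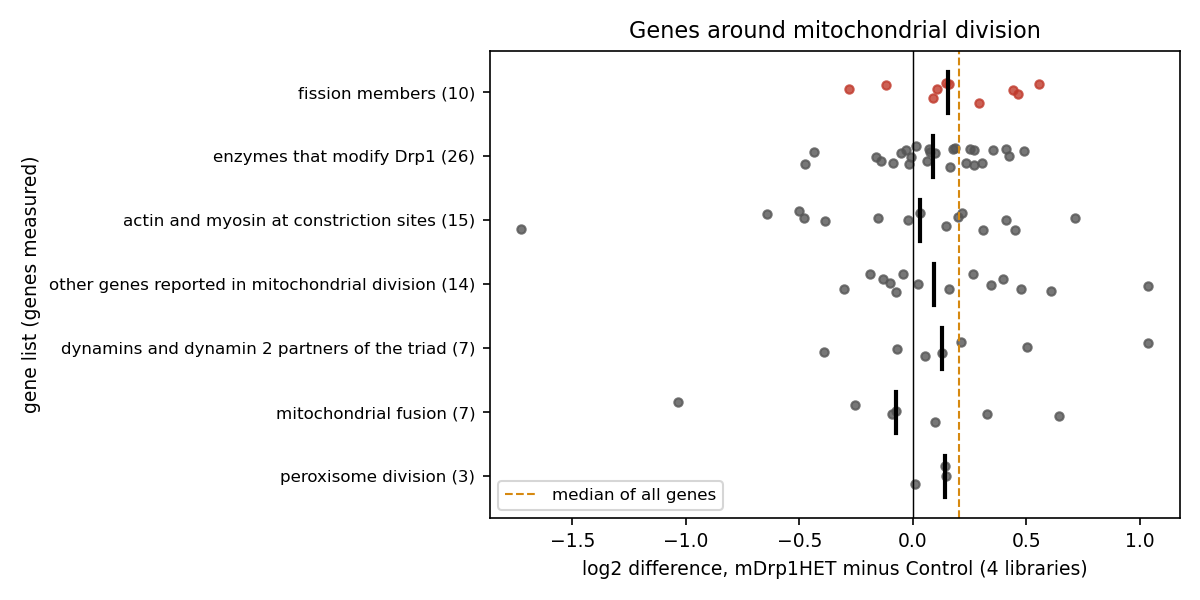
Log2 difference, mDrp1HET minus Control, in the 4 separate libraries for each gene of the fission list (red) and of 6 related lists (grey), with the list median as a black bar and the median of all genes, 0.20, as a dashed line. The fission genes span -0.28 to 0.56, and single genes such as Actg1 (-1.72), Fundc1 (1.04) and Mfn2 (-1.03) lie farther out than any fission gene.

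Summed markers of some other cell types also differed between these libraries. All 7 fibro-adipogenic progenitor markers had a log2 fold change above 0, and their summed level was between 2301 and 2309 CPM in mDrp1HET and between 1192 and 1767 CPM in Control libraries, with 1322 CPM in the shared library. The 6 measured of 7 macrophage markers, all with a log2 fold change above 0, summed to between 200.3 and 209 CPM in mDrp1HET and between 101 and 147 CPM in Control libraries. The 5 adipocyte markers summed to between 320 and 581 CPM in mDrp1HET and between 170 and 370 CPM in Control libraries, ranges that overlap. In the shared library they summed to 527 CPM, above both Control libraries, while the macrophage markers summed to 135 CPM. The summed myofibre markers came to between 230900 and 243500 CPM in mDrp1HET and between 262400 and 302000 CPM in Control libraries. Of these 10 markers 3 had a log2 fold change above 0, and the median of the 10 was -0.07. Those 3 were Myh7 at 2.32, Mylpf at 0.56 and Ckm at 0.18. Myh7 had 7.34 log2 CPM in mDrp1HET replicate 1 and 2.18 in mDrp1HET replicate 2. Its Control values were 3.56 and 1.31 log2 CPM in replicates 2 and 3, with 1.85 in the shared library. The abundant fast myosin Myh4 had 15.31 and 15.62 log2 CPM in mDrp1HET replicates 1 and 2, against 16.27 and 16.44 in Control replicates 2 and 3, while Ttn and Actn3 had log2 fold changes of -0.03 and -0.02. Ttn, the most abundant of the 10, had 16.88 and 16.79 log2 CPM in mDrp1HET replicates 1 and 2. Its Control values, 16.64 and 17.08 in replicates 2 and 3, overlap with these. A sum weighs abundant markers most, so Myh4 counts heavily in the myofibre difference. That difference does not speak for all 10 markers, and a sum without Myh4 is not given here. Summed markers of endothelium, smooth muscle and pericytes, Schwann cells and erythroid cells overlapped between the groups. Every measured marker had reads in every library. Of all 45 markers 0 passed limma's adjusted threshold, while at an unadjusted p under 0.05 there were 14 higher and 5 lower (42.2%, against 16.6% of all genes). Voom on recovered reads also called 0 of them. Whether DESeq2, which was set aside, called any of these markers is not given here. The part of these cells in the fission gene values was not tested.

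By the pattern over the 5 libraries, the genes nearest to Dnm1l among 7836 with a mean of at least 3 log2 CPM were Abi2, Pik3cb and Commd8. Their centred values lay within a root mean square distance of 0.017, 0.032 and 0.034 log2 CPM of those of Dnm1l. Abi2 had 4.84 and 4.30 log2 CPM in mDrp1HET replicates 1 and 2, against 4.50 and 4.44 in Control replicates 2 and 3, with 4.26 in the shared library. The nearest fission gene was Mief2, at a distance of 0.17 and rank 1786, and the farthest was Inf2, at 0.41. The mean of Inf2 is below 3 log2 CPM, so it is not among the 7836 genes, where its distance would take rank 6732. So close a match among so many genes over 5 libraries is a description of these libraries.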

How the data were processed

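Total RNA of frozen quadriceps with an integrity number above 7.0 was depleted of ribosomal RNA, made into stranded TruSeq libraries and sequenced in 2 pools, per the labels' protocols. The pool of each library is not stated. The authors deposited log2 CPM values (log2 of reads scaled to a common library total) for 11768 genes and a p-value per gene, whose test is not stated, per the file headers. FastQC, DESeq2 1.30.0 and the build GRCm38 are listed in the submitters' processing notes, and an aligner or counter is not. Other columns of sample values numbered 0. Linear values were whole multiples of a constant step in each column after a constant offset, which gave whole reads for 100% of values (tolerance 0.01 reads), between 10394761 and 64728022 in total per column.

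Groups were taken from the genotype label. Log2 CPM was tested with limma 3.58.1 in R 4.3.3 (two-sided, prior variance following the mean level), with Benjamini-Hochberg adjustment over all genes and a threshold of 0.05, for the labelled columns and without both columns of the shared library. Single values had exact two-sided permutation tests over libraries. The alternatives were median centring, quantile normalization, log2 of CPM plus 1, a minimum mean log2 CPM of 3, no intensity trend, removal of each column's loess trend (span 0.3) on transcript GC content (95.3% of genes had a value), and leaving out each library. Limma-voom on recovered reads was added after the data were seen. The planned edgeR and DESeq2 fits to recovered reads were set aside after they were run and are not reported, since negative binomial count models were kept for deposited counts. The choice was made with their calls known. Scripts were tested on simulated data. Entrez numbers were matched to RefSeq GRCm38.p6 for 11563 genes. Exon unions came from the GENCODE M21 basic set, and longest transcripts and their GC content from the full GENCODE M21 set.

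All 10 fission genes are named, with the 3 genes of smallest unadjusted p in each related list, Mfn1, Mfn2, Opa1 and the 3 genes nearest to Dnm1l in pattern. Of these, 1 gene is not reported here. The members and lists were chosen with earlier results of these data known, the shared library included.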

Additional observations from a re-analysis of the deposited data

How the results depend on the processing

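None of the 10 fission genes passed the threshold in either comparison under any setting reported here, so their signs are those of uncalled values. Where every library is kept, the labelled values follow from those of the 4 libraries and add no evidence on sign. In the 4 libraries, Dnm1l turned to -0.058 with median centring, -0.014 with quantile normalization and -0.31 with the GC trend removed, and as labelled to -0.039, -0.012 and -0.20. Mief1 turned to -0.019, -0.017 and -0.013 under the same 3 settings, and as labelled to -0.013, -0.012 and -0.0087. With median centring and quantile normalization, Mief2 turned to -0.076 and -0.073 (as labelled -0.051 and -0.049), and Mtfp1 to -0.0087 and -0.015 (as labelled -0.0058 and -0.0099). Removal of the GC trend also turned Mff (-0.051, as labelled -0.034) and Mtfr1 (-0.023, as labelled -0.015). The median of all genes is 0.20 in the 4 libraries and 0.035 after median centring. Fis1, Pgam5, Inf2 and Dnm2 kept their sign in all 7 alternatives that keep every library (6 for Inf2, whose mean is below 3 log2 CPM).

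Leaving out each library in turn gave, in the 4 libraries, -0.18 to 0.40 for Dnm1l, -0.29 to 0.049 for Dnm2, -0.22 to 0.40 for Mief2, -0.34 to 0.66 for Mtfp1 and -0.12 to 0.71 for Mtfr1. As labelled it gave -0.13 to 0.18, -0.17 to 0.0011, -0.095 to 0.21, -0.084 to 0.41 and -0.095 to 0.37 for these genes. The other 5 genes kept their sign. The number of all genes called in the 4 libraries, 22 with limma, was 0 with median centring, without the intensity trend and with the GC trend removed, 1 with quantile normalization, 51 with limma-voom, and between 77 and 325 with 1 library left out. As labelled it was between 0 and 2 with 1 column left out. The cause was not tested. The planned edgeR and DESeq2 fits were set aside after they were run, with no values here. Neither called a fission gene and both gave Dnm1l a negative sign, but in the 4 libraries edgeR called no gene and DESeq2 called more than limma and voom with every library kept, so calls over all genes depend on the tool more than the counts above show. No paired analysis was possible because the labels give no replicate numbers that groups share. Depth limits Inf2 most, with 62 reads in its lowest library.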
